A study of Mus musculus with 4 samples.

Results

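Genes of the glutathione, peroxiredoxin, thioredoxin and superoxide defences were described in 4 RNA sequencing libraries of mouse uterus at day gd11.5 of gestation. The labels call the cells CD3-CD45+NK1.1+ uterine natural killer (NK) cells, taken by flow sorting from females mated with male B6 mice. The groups are 2 libraries labelled Ncr1Cre and 2 control libraries that lack Cre. Both genotypes are homozygous (f/f) for the same floxed allele, a gene flanked by sites that Cre cuts. In the Ncr1Cre group Cre was driven from Ncr1, the gene of the NK-cell receptor NKp46. The sources used here give neither the age of the females nor the number of mice in a library. The labels do not state whether the 2 libraries of each genotype are separate animals, so the p-values reflect the scatter among these 4 libraries alone, and this may be technical. The members were found by symbol, from the name patterns Gpx, Prdx, Txn, Txnrd, Sod and Gst with a number, and from a list of 13 further symbols. This gave 55 of the 21993 genes in the files, and 1 listed symbol, Selenop, had no row. The row named Sepp1 carries the identifier that the reference pairs with Selenop and is given among the related genes.

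Glutathione is a small thiol peptide, made by the ligases of Gclc, Gclm and Gss and returned to its reduced form by the reductase of Gsr. Glutathione peroxidases and peroxiredoxins turn peroxides into water or alcohols, many of the former with glutathione and most of the latter with thioredoxin. Superoxide dismutases make hydrogen peroxide from superoxide, and catalase breaks it down. Glutathione transferases join glutathione to reactive compounds. Many of these genes are known targets of the transcription factor NRF2 (Nfe2l2), which KEAP1 (Keap1) holds in check in unstressed cells.

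The files hold FPKM, fragment numbers scaled by transcript length and library size, so levels can be compared between genes. The FPKM values summed to between 384852 and 468192 per library, and fragment steps in the low values implied depths of 20950000 to 38430000 fragments. Genes whose 4 libraries averaged 1 FPKM or more were tested with limma on log2(FPKM + 1), and a gene is called at a Benjamini-Hochberg adjusted p under 0.05. Log2 fold changes are Ncr1Cre minus control on that scale, which understates differences of weakly expressed genes. Permuting 4 libraries exactly gives no p smaller than 0.333, so no single gene was tested that way.

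The libraries differed in markers of other cell types, while the defining NK-cell genes were low in all 4. Ncr1 was listed at 0 and 0.15 FPKM in Ncr1Cre and at 0.14 and 0.36 in control, and Klrb1c, the gene of NK1.1, lay between 0.45 and 0.97. Ptprc, the gene of CD45, stood at 4.39 and 5.16 in Ncr1Cre against 2.89 and 2.57 in control and was called higher (adjusted p = 0.0103). The CD3 genes Cd3d, Cd3e and Cd3g were below the filter. All 12 epithelial markers were called higher in Ncr1Cre, with summed levels of 1118 to 1157 FPKM against 334 to 348. All 12 stromal markers were called lower, with sums of 15403 to 15423 against 34781 to 35199, as were all 7 tested smooth-muscle markers, with sums of 212 to 218 against 587 to 598. Of 9 tested macrophage and dendritic cell markers 8 were called higher (102 to 103 against 30.2 to 32.6), as were 5 of 5 tested erythroid markers (669.8 to 789 against 69.6 to 77.4) and 5 of 6 tested trophoblast markers (1265 to 1454 against 520.3 to 588). Summed markers of neutrophils were 22.6 to 23.1 against 3.45 to 3.50 (2 of 3 tested higher), of endothelium 48.3 to 50.4 against 26.4 to 26.5 (4 of 7 higher, 1 lower), of yolk sac and fetal liver 78.7 to 82.8 against 23.3 to 23.8 (5 of 6 higher), and of decidual cells 152 to 174 against 232 to 262 (2 of 7 higher, 3 lower). Of the markers called higher, 2 of macrophages and dendritic cells, 1 of neutrophils, 3 of erythroid cells and 2 of yolk sac and fetal liver averaged under 1 FPKM in control and passed the filter only through the Ncr1Cre libraries. The sums take in every marker with a row, whether it passed or not. Ncr1 was the only defining marker of these lists that was listed at 0 in a library, although the erythroid Hbb-b1 has no row. Summed NK-cell markers lay at 38.6 to 39.5 against 26.1 to 26.6, with 4 of 6 tested called higher. The part of these cells in the differences below was not tested, and in such bulk samples fewer cells of a type and less RNA per cell cannot be told apart.

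Of the 55 members, 45 passed the filter, of which 20 rose in Ncr1Cre, 8 fell and 17 were not called. Among all 11762 genes tested, 30.9% were called higher, 17.6% lower and 48.5% in either direction, against 28 members called, or 62.2%. The values of the genotypes did not overlap for 41 of the 45, where 76.2% of all tested genes did not overlap. The median log2 fold change was 0.24 over the members and 0.11 over all tested genes. The transferase genes Gsto1, Mgst1 and Mgst3, 3 of the 4 genes of glutathione synthesis and recycling, and Prdx1, Prdx3 and Prdx5 were among the genes that rose. Gpx7, Gpx8, Prdx4, Cat, Sod3, Gstm1, Gstm2 and Gstt1 fell. When the libraries were scaled to a common median over the tested genes, the median difference over all genes moved from 0.11 to -0.05, and 17 members were called higher and 12 lower, against 2632 and 3069 of all genes. Quantile normalization gave 20 and 13 members, against 2615 and 3032 of all genes. Calls were thus higher in 71.4%, 58.6% and 60.6% of the called members as reported and under these scalings, and in 63.7%, 46.2% and 46.3% of all called genes. Under both scalings no called member changed direction.

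**Figure D1:**
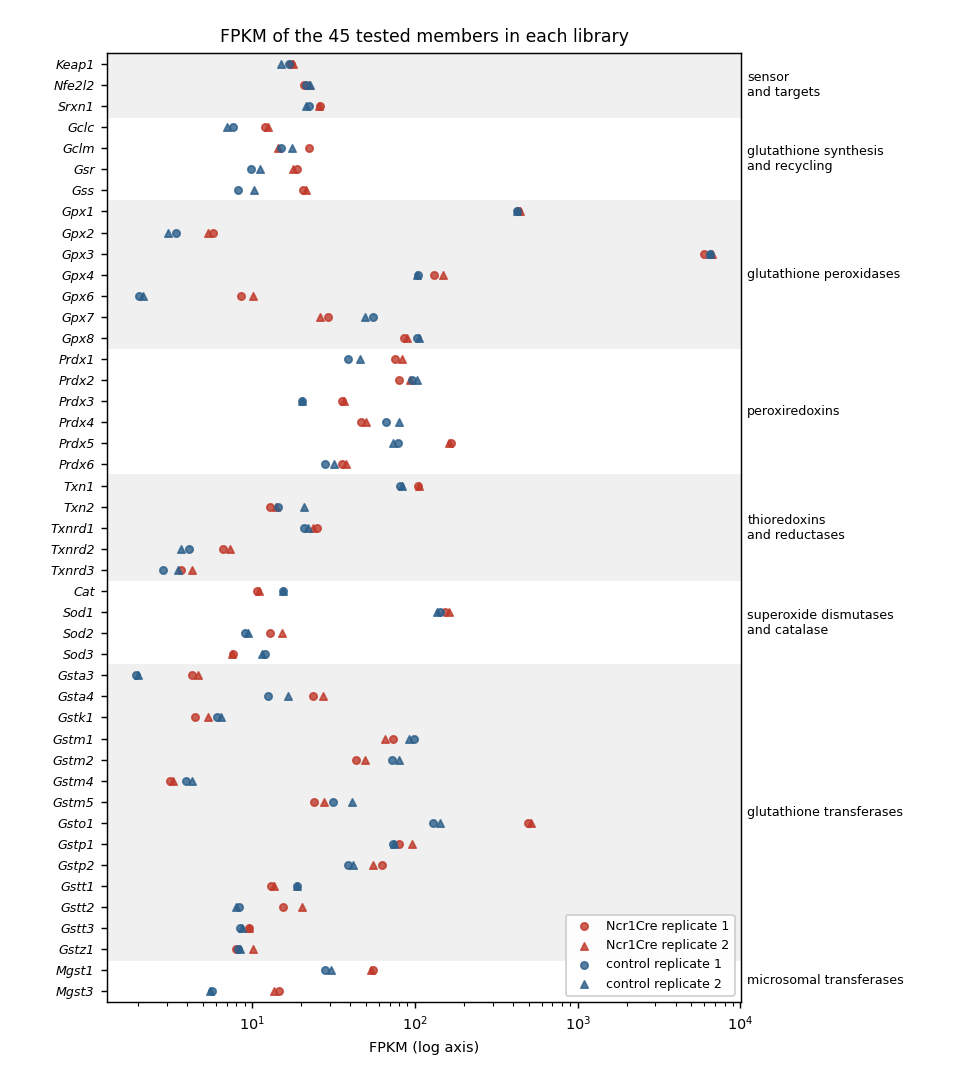
FPKM of each of the 45 tested members on a log axis, grouped by role, with 1 point per library (red Ncr1Cre, blue control; circle replicate 1, triangle replicate 2). Gpx3 stands far to the right in all 4 libraries, Gsto1 and Gpx6 show wide gaps between the genotypes, and the points of Gclm, Nfe2l2, Gpx3 and Gstz1 overlap.

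The sensor pair was near the same level in both genotypes. Nfe2l2, which encodes NRF2, stood at 20.9 and 22.4 FPKM in Ncr1Cre and at 21.4 and 22.8 in control. The values overlapped, and the 95% confidence interval of the log2 difference ran from -0.23 to 0.18 (adjusted p = 0.798). Keap1 stood at 17.4 and 17.8 against 16.8 and 14.97, with an interval from -0.08 to 0.37 (adjusted p = 0.237), and it overlaps Gm16754 on the opposite strand. Srxn1 encodes sulfiredoxin, which repairs over-oxidized peroxiredoxins. It stood at 26.1 and 25.9 FPKM in Ncr1Cre and at 22.4 and 21.3 in control, a 1.19-fold rise (log2 fold change 0.24, SE 0.072, adjusted p = 0.0432). Under median rescaling the log2 fold change of Srxn1 was 0.077 (adjusted p = 0.420) and under quantile normalization 0.082 (0.375), and neither was called. With any 1 library left out the log2 fold change stayed at 0.21 to 0.27 but was not called (adjusted p 0.0961 to 0.168). Nqo1, a quinone reductase widely used as a readout of NRF2, was below the filter at 1.02 and 0.97 FPKM against 0.87 and 0.53, values that rest on about 17.2 to 51.9 fragments.

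NRF2 binds the antioxidant response element, whose core is TGACNNNGC, so the promoters of the members were searched for it on both strands. The windows, from RefSeq on GRCm38.p6, run from 250 bases before to 50 after a gene's start, and 49 of the 55 members have 1 or more. The core occurred in 10 of these 49 genes (20.4%) and in 3781 of all 27025 genes with a window (14.0%). By windows this was 10 of 63 (15.9%) against 12.4% of all 32851. The 10 were Gclm, Gsta3, Gstm5, Gstm7, Mgst1, Nfe2l2, Prdx1, Sod1, Srxn1 and Txnrd1, of which 4 were called higher, 0 lower, 5 not called and 1 was not tested. Among all 45 tested members 20 were called higher, 8 lower and 17 not called, and 30.9% of all tested genes were called higher. A link of the motif to the calls was not tested. The matches in 3 of the genes that rose, in 2 known NRF2 targets that were not called and in Nfe2l2 itself are shown so that the letters can be set beside the values. They lie at chr4:116685441-116685499 (+ strand, Prdx1), chr6:138140446-138140504 (+, Mgst1), chr1:21240439-21240497 (+, Gsta3), chr3:122245398-122245456 (+, Gclm), chr10:82859089-82859147 (+, Txnrd1) and chr2:75704870-75704913 (- strand, Nfe2l2). Each is written 5′ to 3′ on the gene's strand, upstream of the start, with the match in capitals. In Prdx1, Mgst1, Gclm and Txnrd1 the core lies on the opposite strand.
Prdx1: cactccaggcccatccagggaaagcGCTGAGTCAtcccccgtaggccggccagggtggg
Mgst1: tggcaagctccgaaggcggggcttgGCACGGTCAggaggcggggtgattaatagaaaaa
Gsta3: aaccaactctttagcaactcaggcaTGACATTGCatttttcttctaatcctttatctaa
Gclm: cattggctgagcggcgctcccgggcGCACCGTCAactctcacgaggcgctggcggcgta
Txnrd1: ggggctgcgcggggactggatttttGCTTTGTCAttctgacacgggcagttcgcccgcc
Nfe2l2: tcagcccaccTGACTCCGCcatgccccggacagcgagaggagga
The match of Prdx1 begins 133 bases before the start and overlaps a core of AP-1 (TGANTCA), a motif found in 6 of the 49 members with a window and in 8.97% of all such genes. A match is a stretch of letters and does not show binding.

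Genes of glutathione synthesis and recycling rose in 3 of 4, where 30.9% of all tested genes were called higher. Gss encodes glutathione synthetase, the second ligase, and stood at 20.6 and 21.3 FPKM in Ncr1Cre against 8.13 and 10.3 in control, a 2.27-fold rise (log2 fold change 1.11, SE 0.12, adjusted p = 0.00199). Gsr, the reductase, stood at 18.9 and 17.9 against 9.82 and 11.2 (log2 fold change 0.76, adjusted p = 0.00305). Gclc, the catalytic subunit of glutamate-cysteine ligase, stood at 12.0 and 12.5 against 7.58 and 7.03 (log2 fold change 0.67, adjusted p = 0.00330). In all 3 genes both Ncr1Cre libraries lay above both control libraries, where 76.2% of all tested genes did not overlap between the genotypes. Gclm, the modifier subunit of the same ligase, did not follow: its values of 22.5 and 14.3 in Ncr1Cre spanned the 15.0 and 17.5 of control, with an interval from -0.41 to 0.70 (adjusted p = 0.614). Without Ncr1Cre replicate 2 Gclm was called higher (log2 fold change 0.45, adjusted p = 0.0422), and without Ncr1Cre replicate 1 the value was -0.16 (adjusted p = 0.386). Gss shares exons with Acss2 and 2 further genes on the opposite strand, with 10.3% of its 50-base words found in other genes, and whether the authors counted by strand is not stated in the labels.

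Glutathione peroxidases held the most abundant member and moved in both directions, with 3 of 7 tested higher, 2 lower and 2 not called. That was 71.4% called, against 48.5% of all tested genes. The family held 1.46% and 1.59% of the FPKM of a library in Ncr1Cre, against 1.87% and 1.82% in control. Gpx3, the secreted plasma peroxidase, stood at 6011 and 6708 FPKM in Ncr1Cre and at 6512 and 6540.1 in control. It made up 89.7% to 90.5% of the summed FPKM of its family and ranked first among the members in both genotypes. Its values overlapped, with an interval from -0.24 to 0.16 (adjusted p = 0.704), although quantile normalization called it higher (0.35, adjusted p = 0.00176). Gpx1, the cytosolic enzyme of most cells, stood at 429 and 444 against 421 and 426. Its interval ran from -0.11 to 0.19 (adjusted p = 0.582), and quantile normalization called it lower (-0.26, adjusted p = 0.0108). The direction of these 2 genes thus changed with the scaling.

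Gpx6, known from olfactory epithelium, stood at 8.54 and 10.1 FPKM in Ncr1Cre and at 2.03 and 2.13 in control, a 4.50-fold rise (log2 fold change 1.74, SE 0.12, adjusted p = 0.000468). Gpx2, known from the epithelium of the gut, rose 1.72-fold from 3.43 and 3.06 to 5.77 and 5.39 (adjusted p = 0.00651), in the libraries in which the 12 epithelial markers were higher. Gpx4, which reduces lipid hydroperoxides in membranes, stood at 131 and 149 against 104 and 103 (log2 fold change 0.43, adjusted p = 0.0115). That call was lost under median rescaling (0.26, adjusted p = 0.0636), and 34.7% of the 50-base words of Gpx4 also occur in its pseudogene Gpx4-ps2. The peroxidases of the endoplasmic reticulum were lower. Gpx7 fell 1.90-fold, from 55.4 and 49.6 to 29.1 and 26.3 FPKM (log2 fold change -0.90, SE 0.094, adjusted p = 0.00165). Gpx8 fell 1.19-fold, from 103 and 106 to 85.8 and 89.5 (adjusted p = 0.0280), a call that was lost without any 1 of the libraries (adjusted p 0.0694 to 0.129). Stromal markers were lower in the same libraries, and their part in these falls was not tested. Gpx5, the epididymal enzyme, was listed at 0 in 3 libraries and at 0.026 in Ncr1Cre replicate 2.

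**Figure D2:**
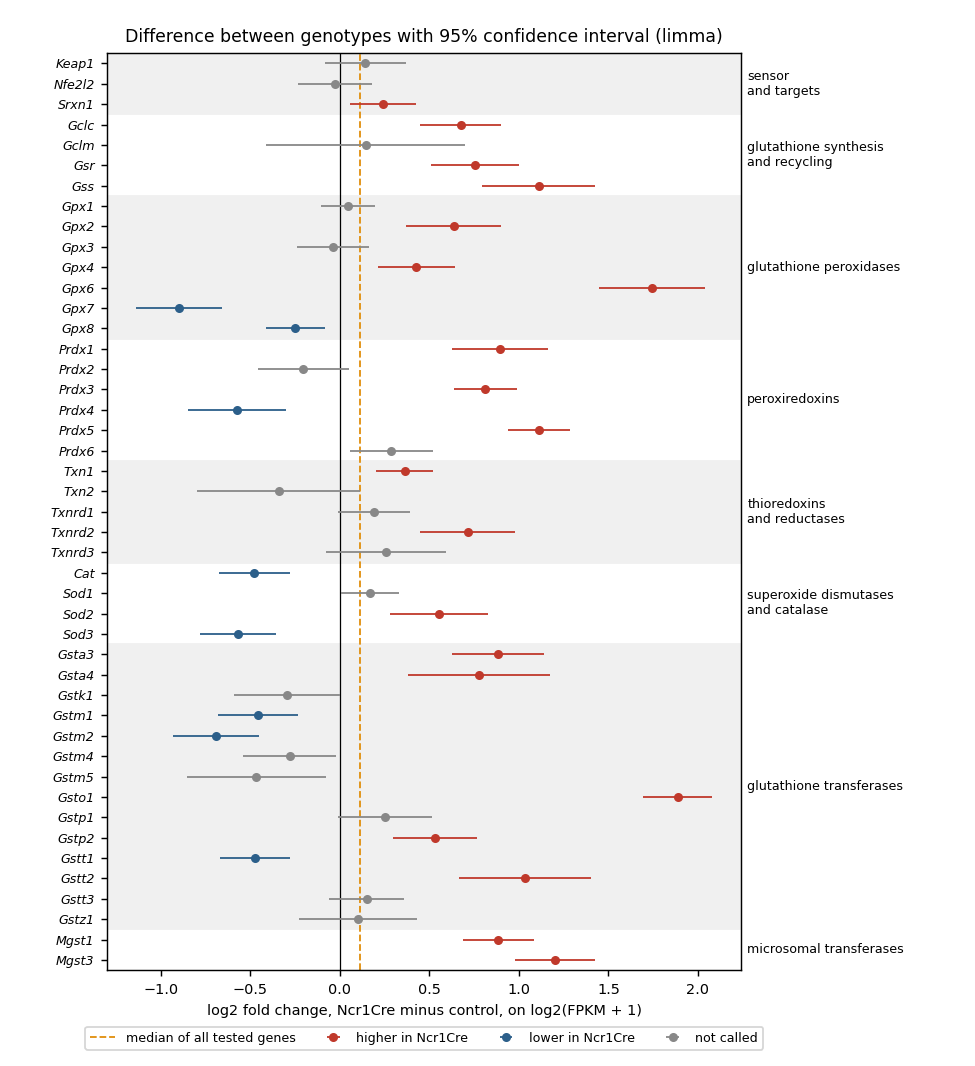
Log2 fold change of the 45 tested members (Ncr1Cre minus control, on log2(FPKM + 1)) with 95% confidence intervals from limma, in red for called higher, blue for called lower and grey for not called. The dashed line is the median of all tested genes at 0.11. Gsto1 and Gpx6 lie farthest to the right and Gpx7 farthest to the left.

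Peroxiredoxins were split, with 3 of 6 higher, 1 lower and 2 not called, or 66.7% called against 48.5% of all tested genes. Prdx5, an enzyme of mitochondria, peroxisomes and cytosol, stood at 167 and 162 FPKM in Ncr1Cre and at 78.3 and 73.4 in control, a 2.17-fold rise (log2 fold change 1.11, SE 0.067, adjusted p = 0.000387). Prdx3, the mitochondrial enzyme, stood at 35.7 and 36.7 against 20.2 and 20.1 (log2 fold change 0.81, adjusted p = 0.000901). Prdx1, cytosolic, stood at 75.5 and 83.4 against 39.0 and 45.7 (log2 fold change 0.89, adjusted p = 0.00229). In each of the 3 the Ncr1Cre values lay well above the control values, where 76.2% of all tested genes did not overlap between the genotypes. Prdx4, which works in the endoplasmic reticulum, went the other way, with 46.8 and 49.8 in Ncr1Cre against 66.0 and 79.3 (log2 fold change -0.57, SE 0.11, adjusted p = 0.0100). Prdx2, abundant in red cells, stood at 79.7 and 93.1 against 95.4 and 103.5 and was not called (interval -0.46 to 0.05, adjusted p = 0.150), while the erythroid markers were higher in Ncr1Cre. It was called lower with the replicate block (adjusted p = 0.0389) and after median rescaling (0.0397) and quantile normalization (0.0310). Prdx6, the 1-cysteine enzyme, stood at 35.6 and 37.8 against 28.1 and 31.8 and was not called (log2 fold change 0.29, adjusted p = 0.0505, and 0.0227 with the replicate block). Median rescaling lowered the log2 fold change of Prdx6 to 0.12 (adjusted p = 0.335) and quantile normalization to 0.13 (0.321). Prdx5 supplied 35.1% to 38.0% of the summed FPKM of the family in Ncr1Cre and 20.7% to 24.0% in control. Prdx5 shares 15.5% of its 50-base words with Trmt112, which overlaps it on the opposite strand, and Prdx2 overlaps Junb and Rnaseh2a in the same way.

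Thioredoxin genes rose in 2 of 5, with 0 called lower. That was 40% called, where 48.5% of all tested genes were called and 30.9% were called higher. Txn1, the cytosolic thioredoxin that serves the peroxiredoxins, stood at 104 and 106 FPKM in Ncr1Cre and at 80.5 and 82.8 in control, a 1.29-fold rise (log2 fold change 0.36, SE 0.062, adjusted p = 0.00767) with an adjusted p of 0.0597 after median rescaling. Txnrd2, the mitochondrial reductase, rose 1.80-fold from 4.10 and 3.68 to 6.67 and 7.35 (adjusted p = 0.00475). Txn2, the mitochondrial thioredoxin itself, stood at 12.9 and 14.0 against 14.4 and 20.8 and was not called (interval -0.80 to 0.11, adjusted p = 0.171). The control libraries of Txn2 differed more from each other than the Ncr1Cre libraries did, and without control replicate 1 it was called lower (log2 fold change -0.59, adjusted p = 0.0215). Txnrd1, the cytosolic reductase, stood at 25.2 and 23.8 against 20.7 and 21.9 (adjusted p = 0.101). Txnrd3, known from testis, stood at 3.65 and 4.26 against 2.82 and 3.48 (adjusted p = 0.164).

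Among superoxide dismutases and catalase, 1 of 4 rose and 2 fell, or 75% called against 48.5% of all tested genes. Sod2, the mitochondrial manganese enzyme, stood at 12.8 and 15.2 FPKM in Ncr1Cre and at 8.99 and 9.37 in control, a 1.52-fold rise (log2 fold change 0.55, SE 0.11, adjusted p = 0.0114) with an adjusted p of 0.0517 without control replicate 1. Sod3, the extracellular copper-zinc enzyme, fell 1.55-fold from 12.0 and 11.49 to 7.64 and 7.54 (adjusted p = 0.00457). Cat, the peroxisomal catalase, fell 1.43-fold from 15.4 and 15.5 to 10.7 and 10.95 (adjusted p = 0.00629). For both genes the 2 libraries of a genotype lay close together and far from the other genotype. Of all tested genes, 76.2% did not overlap between the genotypes. Sod1, the cytosolic copper-zinc enzyme and the most abundant of the 4, stood at 154 and 161 against 143 and 137 and was not called (interval 0.0040 to 0.33, adjusted p = 0.0841). Of the 50-base words of Sod2, 21.0% occur in other genes.

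Cytosolic and mitochondrial glutathione transferases differed by class. Of 21 genes, 14 were tested, 5 rose and 3 fell, or 57.1% called against 48.5% of all tested genes. Gsto1, the omega transferase that also reduces dehydroascorbate and arsenic compounds, stood at 492 and 519 FPKM in Ncr1Cre and at 129.6 and 143 in control. This 3.71-fold rise (log2 fold change 1.89, SE 0.075, adjusted p = 0.000190) moved Gsto1 from rank 4 among the members in control to rank 2 in Ncr1Cre. Its share of the summed FPKM of all 21 transferases was 57.0% to 57.1% in Ncr1Cre and 25.1% to 26.1% in control. Without Gsto1 the other 20 summed to 369 and 391 FPKM in Ncr1Cre and to 386 and 403 in control, which overlapped. As a share of the FPKM of a library, they held 0.0802% and 0.0836% in Ncr1Cre against 0.1003% and 0.1017% in control. These shares were lower in both Ncr1Cre libraries and did not overlap, so the comparison depends on the scale. Gsto2, the neighbour of Gsto1 in class, was below the filter at 1.28 and 1.29 against 0.37 and 0.21.

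Alpha, mu, pi and theta transferases moved differently. In the alpha class Gsta3 stood at 4.28 and 4.66 FPKM in Ncr1Cre against 1.93 and 1.99 in control (log2 fold change 0.88, adjusted p = 0.00218). Gsta4, which acts on the lipid peroxidation product 4-hydroxynonenal, stood at 23.7 and 27.1 against 12.4 and 16.7 (log2 fold change 0.78, adjusted p = 0.0125). The 4 tested mu genes all had lower values in both Ncr1Cre libraries, and 2 of them were called lower, or 50%. Of all tested genes, 48.5% were called in either direction, 17.6% were called lower and 76.2% did not overlap between the genotypes. Gstm2 fell 1.63-fold from 72.1 and 79.6 to 43.7 and 49.4 (adjusted p = 0.00368). Gstm1 fell 1.38-fold from 99.2 and 91.7 to 73.4 and 65.2 (adjusted p = 0.0111, and 0.0518 without control replicate 1). Gstm5 (24.0 and 27.7 against 31.5 and 41.3, adjusted p = 0.0539) and Gstm4 (3.11 and 3.28 against 3.90 and 4.29, adjusted p = 0.0731) missed the threshold. Median rescaling called both lower (adjusted p = 0.0232 and 0.0206), as did quantile normalization (0.0329 and 0.0245), and the replicate block called Gstm5 lower (0.0116). The summed level of the 7 mu genes was 145 and 147 FPKM in Ncr1Cre against 208 and 218 in control. Of the 50-base words of Gstm1, 18.9% occur in other genes, with 14.1% in the pseudogene Gstm2-ps1.

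In the pi class Gstp2 stood at 62.9 and 54.9 FPKM against 39.1 and 41.6 (adjusted p = 0.00805), and Gstp1 at 80.4 and 96.3 against 73.7 and 73.9 (adjusted p = 0.0971). These 2 genes are near copies, with 49.1% of the 50-base words of Gstp2 found in Gstp1, so their separate values are uncertain. Their summed FPKM was 143 and 151 in Ncr1Cre against 113 and 116 in control, and how reads shared by the pair entered these values is not known. The theta genes went apart: Gstt2 rose 2.20-fold from 8.27 and 7.996 to 15.4 and 20.4 (adjusted p = 0.00412), Gstt1 fell 1.42-fold from 18.9 and 18.8 to 12.97 and 13.6 (adjusted p = 0.00621), and Gstt3 was not called (adjusted p = 0.193). Gstk1 of mitochondria and peroxisomes stood at 4.43 and 5.37 against 6.05 and 6.40 (adjusted p = 0.0899, and 0.0294 after median rescaling). Gstz1, an enzyme of tyrosine breakdown, stood at 7.96 and 10.1 against 8.17 and 8.47 (adjusted p = 0.557).

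**Figure D3:**
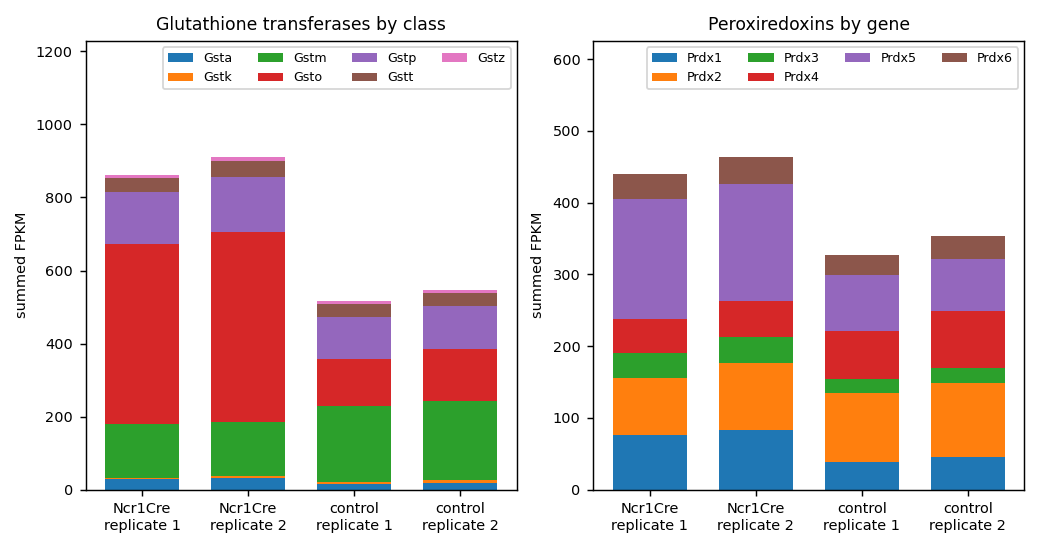
Stacked bars of summed FPKM in each library for the 21 glutathione transferases by class (left) and the 6 peroxiredoxins by gene (right). The omega segment (Gsto) is taller and the mu segment (Gstm) shorter in both Ncr1Cre libraries, and on the right the Prdx5 and Prdx1 segments are taller and the Prdx4 segment shorter.

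Microsomal transferases rose in both tested genes, where 30.9% of all tested genes were called higher. Mgst1, a detoxifying enzyme of microsomal and outer mitochondrial membranes, stood at 55.6 and 53.8 FPKM in Ncr1Cre and at 27.9 and 30.5 in control, a 1.87-fold rise (log2 fold change 0.89, SE 0.077, adjusted p = 0.000968). Mgst3 stood at 14.6 and 13.7 against 5.70 and 5.48, a 2.53-fold rise (log2 fold change 1.20, SE 0.087, adjusted p = 0.000585). Mgst2, below the filter, stood at 0.95 and 1.06 against 0.47 and 0.45.

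The 10 members below the filter were Gpx5, Gsta1, Gsta2, Gstm3, Gstm6, Gstm7, Gsto2, Gstt4, Mgst2 and Nqo1. Gsto2, Mgst2, Gsta2 and Nqo1 had higher values in both Ncr1Cre libraries than in either control library, and Gsta1 was listed at 0.10 and 0.25 in Ncr1Cre and at 0 in both control libraries. Of all tested genes, 76.2% did not overlap between the genotypes, a share not taken for genes below the filter. In a fit with no filter Gsto2 (adjusted p = 0.00537), Mgst2 (0.0130) and Gsta2 (0.0389) were called higher, and Nqo1 was not (0.219). That fit called 3954 of all genes higher and 2021 lower, and 23 members higher and 8 lower. Gsta2 rests on about 3 to 21.1 fragments in a library and shares 36.0% of its 50-base words with Gsta1. Gstm3, Gstm6, Gstm7, Gstt4 and Gpx5 overlapped between the genotypes, at 0 to 1.353 FPKM.

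Related genes that were not members were taken from 6 lists of 97 genes with a row, of which 80 were tested. Of these 31 rose and 19 fell, or 62.5% called against 48.5% of all genes, with a median log2 fold change of 0.18 against 0.11. By list, 53.8% to 75% of the tested genes were called. Median rescaling gave 26 and 23, so that 53.1% of the called related genes were higher, where 46.2% of all called genes were. NADPH, the source of reducing power for both systems, comes in part from the pentose phosphate pathway, and of 9 tested suppliers 4 rose and 1 fell. G6pdx, the first enzyme of that pathway, rose from 28.4 and 28.1 to 46.9 and 49.1 FPKM (adjusted p = 0.00115), Taldo1 from 57.8 and 59.8 to 105 and 108 (adjusted p = 0.000642) and Me1, the cytosolic malic enzyme, from 7.92 and 8.81 to 19.8 and 20.3 (adjusted p = 0.000644). Idh2, the mitochondrial isocitrate dehydrogenase, fell from 39.6 and 41.2 to 29.5 and 29.1 (adjusted p = 0.00542).

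Of 12 tested genes of cystine and glutamate import, glutamine use and glutathione breakdown, 6 rose and 3 fell. That was 75% called, against 48.5% of all tested genes. Ggt1, a transpeptidase that opens extracellular glutathione, rose from 1.56 and 1.53 to 7.22 and 6.12 FPKM. The more abundant Ggt5 of the same family fell from 102 and 81.2 to 36.9 and 35.2 (adjusted p = 0.00118). Ggt6 was called higher, from 1.17 and 0.90 to 3.10 and 2.74, and Ggt7 was not called. Dpep1, a dipeptidase of the next step, fell from 210.1 and 213 to 69.3 and 72.6. Slc1a1, a glutamate and cysteine carrier, rose from 2.39 and 2.92 to 8.42 and 8.34, and Lap3, a leucine aminopeptidase, from 20.1 and 19.2 to 37.3 and 37.3. The cystine carrier Slc7a11 was below the filter at 0.60 and 0.41 against 0.14 and 0.069. Of 10 glutaredoxins, glyoxalases and methionine sulfoxide reductases 5 rose and 2 fell, or 70% called against the same 48.5%. Glrx, the cytosolic glutaredoxin, rose from 6.12 and 6.37 to 13.8 and 16.1, Hagh from 17.9 and 17.5 to 38.6 and 35.03 and Msra from 4.35 and 4.18 to 9.94 and 10.0, while Msrb3 fell from 11.2 and 11.7 to 5.47 and 5.86.

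Other partners and targets of NRF2 went both ways, with 9 of 25 tested higher and 6 lower. That was 60% called, where 48.5% of all tested genes were called and 30.9% were called higher. Ftl1, the ferritin light chain, rose from 1465 and 1445 to 2576 and 2535 FPKM, and Hmox1, heme oxygenase, from 22.7 and 24.8 to 49.9 and 51.3. Cbr1, a carbonyl reductase, rose from 18.7 and 18.4 to 37.7 and 35.7 and the exporter gene Abcc4 from 16.8 and 16.8 to 28.7 and 28.2. Akr1b8, an aldose reductase relative chosen after its values were seen, had the largest log2 fold change of the tested related genes (2.27, adjusted p = 0.00310), with 47.1 and 88.3 against 12.5 and 12.7. Of 13 tested genes of selenoprotein synthesis and other selenoproteins, 3 rose and 4 fell, or 53.8% called against 48.5% of all tested genes. Sepn1 fell from 32.4 and 30.7 to 21.6 and 22.3 and Selm, of the endoplasmic reticulum, from 117 and 105 to 80.3 and 76.9. Sepw1 rose from 81.0 and 73.6 to 114 and 101, and Sephs2, which makes selenophosphate, from 13.2 and 11.4 to 18.3 and 17.1. Sepp1, which encodes the selenium carrier selenoprotein P, fell from 94.6 and 106 to 75.5 and 84.6 (log2 fold change -0.32, SE 0.095, adjusted p = 0.0408).

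Sources of superoxide and hydrogen peroxide were tested in 11 of 22, of which 4 rose and 3 fell. This came to 63.6% called, against 48.5% of all tested genes. Of the 4, Noxo1 and Ncf4 averaged under 1 FPKM in control and passed the filter only through the Ncr1Cre libraries, and a gene that passes in this way had to differ. Cyba, the p22phox subunit shared by several NADPH oxidases, rose from 69.8 and 66.6 to 161 and 162 FPKM, and Noxo1, an organizer subunit of the NOX1 oxidase, from 0.97 and 0.96 to 5.12 and 5.58. Ncf4, a phagocyte oxidase subunit, rose from 0.53 and 0.59 to 2.20 and 1.88, in the libraries in which macrophage and dendritic cell markers were higher. Cybb, the catalytic subunit of the phagocyte oxidase, was below the filter at 0.64 and 0.52 against 0.30 and 0.38. Maob, a monoamine oxidase, fell from 10.4 and 12.2 to 5.98 and 6.37.

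**Figure D4:**
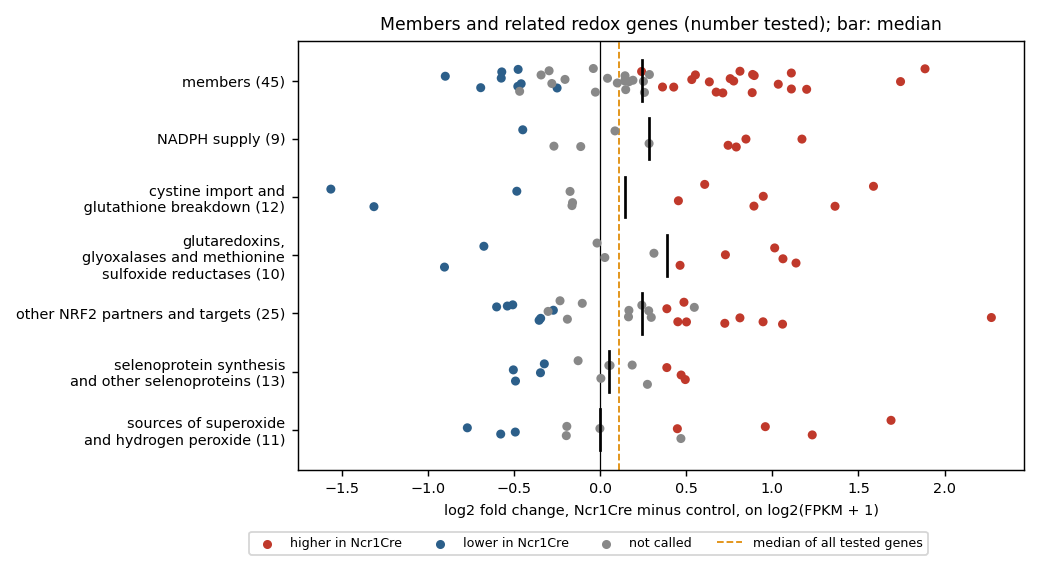
Log2 fold change (Ncr1Cre minus control, on log2(FPKM + 1)) of the members and of the 6 related lists, with 1 point per tested gene, red for called higher, blue for called lower, grey for not called, and a black bar at each median. Every list has points on both sides of 0, and the medians lie between -0.0014 and 0.39 with the dashed line of all tested genes at 0.11.

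Over 10 refits of the data (scaling, pseudocount, filter, replicate block and 1 library left out), 22 of the 28 called members kept their direction and call in each refit that included them (a filter at 5 FPKM leaves out 2 of the 28). The exceptions were Gpx4, Gpx8, Gstm1, Sod2, Srxn1 and Txn1, and each of these kept its direction. With 1 library left out, 18 to 20 members were called higher and 7 to 8 lower.

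**Figure D5:**
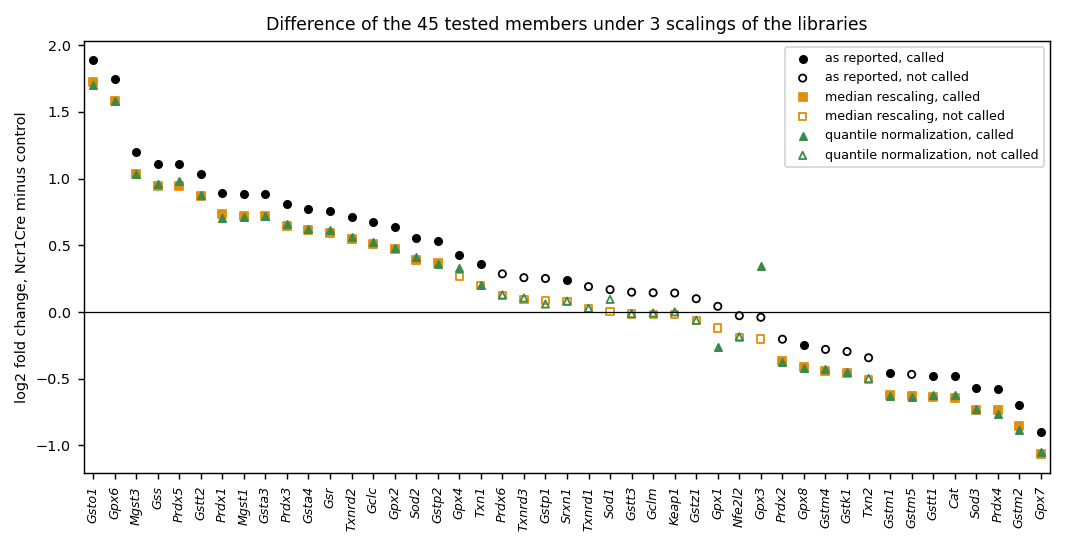
Log2 fold change (Ncr1Cre minus control) of the 45 tested members, ordered by the value as reported, under 3 scalings of the libraries: as reported (circles), median rescaling (squares) and quantile normalization (triangles), filled where called. Most alternatives lie slightly below the reported value, and the quantile values of Gpx3 and Gpx1 stand apart from their neighbours.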

How the data were processed

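Values are FPKM per gene in 1 file per library, made by the authors with Cufflinks on mm9 per the submitters' processing notes; no version is given. No aligner, annotation or rule for reads with several hits is stated there. All 55 member identifiers and symbols matched the GENCODE M21 names. The gene of the floxed allele is not reported here.

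The test was limma 3.58.1 (R 4.3.3) with an intensity trend on log2(FPKM + 1) of the 11762 genes that averaged 1 FPKM or more, 2 libraries against 2, two-sided, Benjamini-Hochberg adjusted over all tested genes. It was also run on simulated data with independent noise and few changed genes. That setting differs from these libraries, so the run does not measure the share of false calls here. FPKM are not counts, and depth was estimated from whole-fragment steps in genes with 1 transcript: 37.2% to 40.5% of low values came out whole within 0.02 fragments, too few for a count test. Members and lists were chosen with earlier results of these data known. Every member with a mean of at least 1 FPKM could be named, members below it by their range, and of the related genes the 4 with the smallest p of each list. The 4 values of Nqo1, Gsto2, Mgst2 and Gsta1, which averaged under 1 FPKM, were given outside this rule, after they were seen. The related genes Slc7a11, Cybb, Sepp1, Akr1b8, Ggt5, Ggt6 and Ggt7 were likewise named outside it, after their values were seen. Shared sequence was searched as 50-base words in GENCODE M21 transcripts. Alternatives were a pseudocount of 0.1, no filter or a mean of 5 FPKM, median rescaling, quantile normalization, an adjusted p under 0.1, the replicate number as a block, and each library left out.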

Additional observations from a re-analysis of the deposited data

How the results depend on the processing

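Quantile normalization called 13 members lower in place of 8, while the other alternatives gave 17 to 23 members higher and 7 to 12 lower. Without 1 library, 1351 to 1879 of all genes were called lower in place of 2071, with the lone library of a genotype assumed to vary like the others. Direction changed for 7 members, none called as reported. Under median rescaling the log2 fold changes were -0.019 for Gclm, -0.12 for Gpx1, -0.015 for Gstt3, -0.064 for Gstz1 and -0.021 for Keap1. Under quantile normalization they were -0.0074 for Gclm, -0.26 for Gpx1, 0.35 for Gpx3, -0.012 for Gstt3 and -0.062 for Gstz1. Without 1 library they ranged from -0.16 to 0.45 for Gclm, -0.12 to 0.040 for Gpx3, -0.057 to 0.26 for Gstz1 and -0.073 to 0.018 for Nfe2l2. Gclm was below 0 without Ncr1Cre replicate 1, Gstz1 without Ncr1Cre replicate 2, Gpx3 above 0 without Ncr1Cre replicate 1, and Nfe2l2 above 0 without Ncr1Cre replicate 1 or control replicate 2. The cause was not tested. The replicate numbers share only a number (correlation of deviations 0.16), and the replicate block gave 21 members higher and 10 lower, adding Prdx6 to the former and Gstm5 and Prdx2 to the latter. Values well below 1 FPKM rest on few fragments, since 1 fragment per kb was worth 0.0260 to 0.0477 FPKM.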
